A study of Mus musculus with 12 samples.

Results

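Nr4a1, Nr4a2, Nr4a3, Egr1, Egr2 and Egr3 are transcription factor genes that T cells induce through the T cell receptor, and their transcripts were followed across 3 CD4+ cell populations sorted from mouse thymus. They were taken by gene symbol, as the 6 of 55450 genes in the table that carry these names. All 6 were among the 15361 genes that passed the filter on low counts. The populations were Eos+ Tregs, which are regulatory T cells gated on Foxp3, Ccr6 and Cxcr4, Eos- Tregs, gated on Foxp3 without the other pair of markers, and Tconv, the conventional T cells without Foxp3. Eos is the protein encoded by Ikzf4, and Foxp3 is the transcription factor that defines Tregs. Every population came from mice that carried CD4-Cre and a Foxp3-GFP reporter, so no animals without these alleles were compared. Neither a floxed allele, nor the age of the mice, nor the animals behind a library is named in the labels. Each population had 4 libraries, made by template switching from 1 ng of total RNA.

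The Nr4a genes encode orphan nuclear receptors, Nur77 for Nr4a1, Nurr1 for Nr4a2 and Nor1 for Nr4a3. The Egr genes encode zinc finger factors. Both families are immediate early genes: signalling through calcineurin, the MEF2 factors and their class II histone deacetylases is a known route to Nr4a1, and signalling through Ras, ERK and serum response factor a known route to Egr1. In thymocytes these factors take part in responses to self antigen. The Nr4a receptors have been tied in mice to negative selection and to the induction and upkeep of Foxp3, and Egr2 and Egr3 to the restraint of activated T cells.

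The region around the transcription start is shown first, for the 3 Nr4a genes and Egr2. Whether it bears on the levels of these genes was not tested. Each sequence is the RefSeq window on GRCm38.p6 (mm10) from 250 bases before the start to 50 after it, 5′ to 3′ on the strand of the gene. These are chr15:101266596-101266895 on the plus strand for Nr4a1, chr2:57123954-57124253 on the minus strand for Nr4a2, chr4:48045055-48045354 on the plus strand for Nr4a3 and chr10:67537619-67537918 on the plus strand for Egr2. Capitals mark TGACG, the core of the cAMP response element (CRE), or its complement CGTCA, and in Egr2 also the CArG box, the motif bound by serum response factor.
Nr4a1: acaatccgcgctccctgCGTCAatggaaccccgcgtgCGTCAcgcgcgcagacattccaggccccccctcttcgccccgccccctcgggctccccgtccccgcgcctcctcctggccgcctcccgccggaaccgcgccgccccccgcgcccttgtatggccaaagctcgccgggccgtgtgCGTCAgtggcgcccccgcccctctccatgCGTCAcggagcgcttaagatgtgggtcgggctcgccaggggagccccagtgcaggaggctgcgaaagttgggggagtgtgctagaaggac
Nr4a2: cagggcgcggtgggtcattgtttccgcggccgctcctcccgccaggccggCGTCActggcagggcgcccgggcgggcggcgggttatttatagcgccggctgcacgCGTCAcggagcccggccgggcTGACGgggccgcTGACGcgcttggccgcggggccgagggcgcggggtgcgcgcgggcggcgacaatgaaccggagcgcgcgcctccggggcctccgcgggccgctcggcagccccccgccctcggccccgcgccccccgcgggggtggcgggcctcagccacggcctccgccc
Nr4a3: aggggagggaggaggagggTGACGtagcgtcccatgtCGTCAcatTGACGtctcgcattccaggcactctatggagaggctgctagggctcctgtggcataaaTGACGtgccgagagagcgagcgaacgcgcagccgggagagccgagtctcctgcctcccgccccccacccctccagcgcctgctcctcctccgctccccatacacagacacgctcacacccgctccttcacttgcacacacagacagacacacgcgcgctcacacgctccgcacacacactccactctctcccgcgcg
Egr2: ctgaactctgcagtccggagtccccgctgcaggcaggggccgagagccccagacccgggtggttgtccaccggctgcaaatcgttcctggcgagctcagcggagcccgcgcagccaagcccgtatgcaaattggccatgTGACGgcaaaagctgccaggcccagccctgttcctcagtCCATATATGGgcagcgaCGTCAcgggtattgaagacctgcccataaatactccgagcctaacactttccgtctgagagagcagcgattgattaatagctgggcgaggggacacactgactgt

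Each of the 3 Nr4a windows held 4 CRE cores, counted on both strands. At least 1 core was found in 20.8% of all 32851 RefSeq windows of this length, and 4 or more in 0.231%. The core is the left part of the full CRE, TGACGTCA, which 1.79% of windows held and none of the 3 Nr4a windows did. The Egr2 window was 1 of 5 for that gene and held 2 cores and 1 CArG box, a motif found in 1.63% of windows. Of the 4 remaining Egr2 windows, 2 overlap the one shown and held the same number of each, 1 held 0 cores and 1 CArG box, and 1 held neither motif. None of the 4 windows shown held AAAGGTCA, the monomer element of Nr4a receptors (1.51% of windows), or GCGTGGGCG, the Egr element (0.612%). Nor did they hold the strict form of the MEF2 site, which is CTA, 4 bases of A or T, and TAG (0.557%). Looser forms of the MEF2 site were not searched. A match in these letters is a description and not a site shown to be bound, and it was not compared with any binding data.

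Depth was 23.9 to 37.9 M expected counts per library. The members had 137 counts or more in every library, from 137 to 303 for Egr3 up to 9072 to 27734 for Nr4a1. Levels are given as CPM, which are counts scaled to a common total with TMM factors. Ikzf4 was 314 ± 17.5 CPM in Eos+ Tregs, 171 ± 12.7 CPM in Eos- Tregs and 25.3 ± 2.22 CPM in Tconv (SD, n = 4 each), so the names Eos+ and Eos- stand for more and less of this transcript. Foxp3 was 485 to 862 CPM in 6 Treg libraries, but 55 CPM in Eos+ Treg replicate 1 and 53.3 CPM in Eos- Treg replicate 1, against at most 3.42 CPM in Tconv. Results that depend on the libraries numbered 1 are therefore given with and without them, except correlations between genes, which used every library. Cd3e was 801 to 1040 CPM in every library. In bulk RNA, fewer cells with a transcript and less of it per cell cannot be told apart.

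Nr4a1 had the highest mean and Egr3 the lowest in each population, once levels were divided by exon length. In Eos+ Tregs the level per length was 124 ± 29.1 CPM per kb for Nr4a1, 41.6 ± 7.92 for Egr1, 19.5 ± 2.85 for Egr2, 8.36 ± 1.68 for Nr4a2, 3.39 ± 2.53 for Nr4a3 and 1.77 ± 0.181 for Egr3 (SD, n = 4). Nr4a1, Egr1 and Egr2 each stayed clear of the next gene in that order in all 4 libraries, while Nr4a2 and Nr4a3 overlapped, as did Nr4a3 and Egr3. In Eos- Tregs the top of the order was the same, with 186 ± 44.1 CPM per kb for Nr4a1, 49.3 ± 3.37 for Egr1 and 16 ± 5.65 for Egr2. There Nr4a3, at 5.65 ± 2 CPM per kb, came before Nr4a2, at 4.25 ± 1.25, with overlapping libraries. Tconv also had Nr4a3 before Nr4a2, at 3.51 ± 0.742 and 1.96 ± 0.448 CPM per kb, again with overlap, and there Nr4a2 also overlapped Egr3, at 1.53 to 2.59 CPM per kb for Nr4a2 and 1.06 to 2.04 for Egr3. Division by the longest transcript instead of all exon bases left each of these orders the same.

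**Figure D1:**
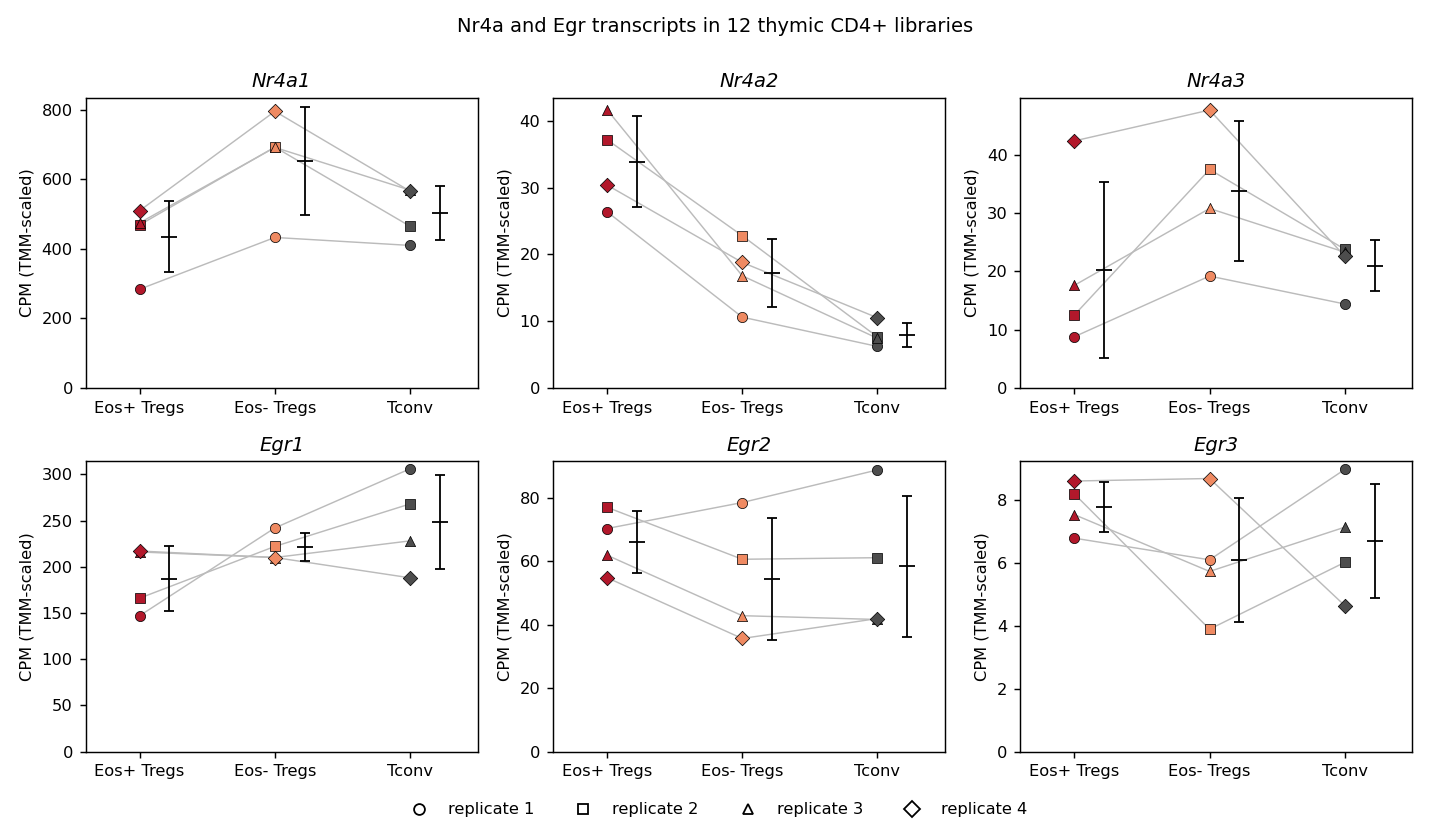
CPM on TMM-scaled totals of each member in the 12 libraries, with 1 panel per gene, a symbol for each replicate number and grey lines joining libraries of the same number; black bars are the mean ± SD of 4 libraries. Nr4a2 descends from Eos+ Tregs through Eos- Tregs to Tconv without overlap, and Nr4a1 is lower in Eos+ than in Eos- Tregs within each number, while the Egr panels overlap between populations.

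Nr4a2 was the member with the largest difference in each comparison, and it followed the order of the populations by Ikzf4. It lies on chromosome 2 (57106830 to 57124003, minus strand, ENSMUSG00000026826.13). Eos+ Tregs had 26.4, 37.2, 41.7 and 30.4 CPM in replicates 1 to 4. Eos- Tregs had 10.6, 22.8, 16.8 and 18.8 CPM, and Tconv had 6.21, 7.63, 7.43 and 10.5 CPM. The lowest Eos+ Treg library was above the highest Eos- Treg library, and the lowest Eos- Treg library was just above the highest Tconv library. Nr4a2 was 1.97-fold higher in Eos+ than in Eos- Tregs (log2 fold change 0.98, SE 0.237, edgeR adjusted p = 0.0135). Against Tconv it was 4.26-fold higher in Eos+ Tregs (log2 fold change 2.09, SE 0.245, edgeR adjusted p = 3.37e-05) and 2.17-fold higher in Eos- Tregs (log2 fold change 1.12, SE 0.24, edgeR adjusted p = 0.00748). Over all tested genes, the libraries were higher without overlap in 12.1% of genes in Eos+ against Eos- Tregs, in 18.5% in Eos+ Tregs against Tconv and in 10.5% in Eos- Tregs against Tconv. All 4 replicate numbers had the same direction for Nr4a2 in each comparison. Within a number, the ratio of Eos+ to Eos- Tregs was 1.62 to 2.5, that of Eos+ Tregs to Tconv 2.89 to 5.62 and that of Eos- Tregs to Tconv 1.7 to 2.99. Without the libraries numbered 1 the log2 fold changes were 0.90, 2.09 and 1.19 in the same order of comparisons (edgeR adjusted p = 0.0128, 5.22e-05 and 0.00306).

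A gene was called changed when its edgeR quasi-likelihood test had a Benjamini-Hochberg adjusted p under 0.05. Nr4a2 was the 1 of 6 members called in Eos+ against Eos- Tregs, a comparison in which 16.3% of the 15361 tested genes were called. It was again the 1 of 6 called in Eos+ Tregs against Tconv, where 30.3% of genes were called, and in Eos- Tregs against Tconv, where 14.6% were. As a share of 6, 1 member is near the share over all genes in both comparisons of Eos- Tregs and below it in Eos+ Tregs against Tconv. The 3 comparisons share libraries and are not independent of each other. Libraries that carry the same replicate number deviated together from the means of their populations, and a model with the replicate number as a block removes that shared shift. With the block 3 of 6 members were called in Eos+ against Eos- Tregs (22.8% of all genes), 1 of 6 in Eos+ Tregs against Tconv (36.3%) and 2 of 6 in Eos- Tregs against Tconv (21.5%). The added calls were Nr4a1 and Nr4a3 between the Treg populations and Nr4a1 in Eos- Tregs against Tconv.

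**Figure D2:**
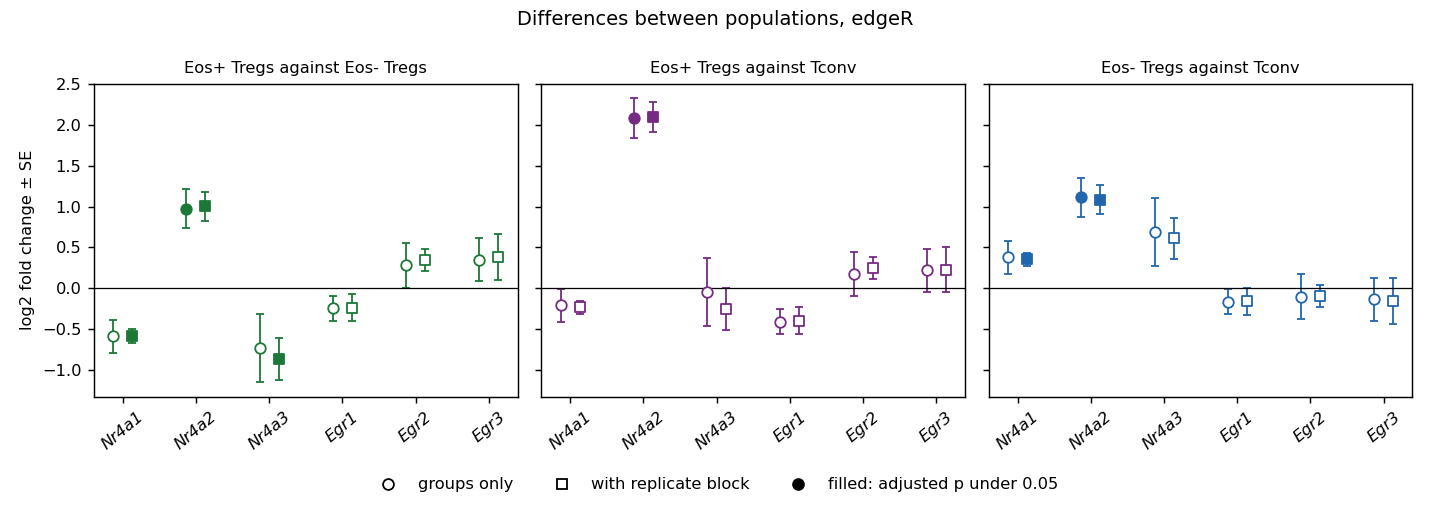
Log2 fold change ± SE of each member in the 3 comparisons, from edgeR with population means only (circles) and with the replicate number as a block (squares); filled symbols have an adjusted p under 0.05. Nr4a2 is filled and above 0 in all panels, at 0.98, 2.09 and 1.12, while Nr4a1 and Nr4a3 lie below 0 in Eos+ against Eos- Tregs, at -0.59 and -0.73, and fill only with the block.

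Nr4a1, the member most often used as a reporter of T cell receptor signalling, was highest in Eos- Tregs. It lies on chromosome 15 (101254269 to 101274795, plus strand, ENSMUSG00000023034.7). Eos+ Tregs had 284, 469, 475 and 510 CPM in replicates 1 to 4. Eos- Tregs had 433, 693, 692 and 796 CPM, and Tconv had 410, 465, 569 and 566 CPM. Replicate 1 was the lowest library of each population, and the ranges of all 3 populations overlapped. The ratio of Eos+ to Eos- Tregs was 0.657, 0.677, 0.686 and 0.641 in numbers 1 to 4, below 1 each time and close to constant. The log2 fold change was -0.59 (SE 0.204), a 1.5-fold lower level that was not called with population means alone (edgeR adjusted p = 0.0687). With the replicate block the difference had the same size and a smaller error (SE 0.0844), and Nr4a1 fell in Eos+ relative to Eos- Tregs (edgeR adjusted p = 0.000796). It also passed without the libraries numbered 1 (log2 fold change -0.59, edgeR adjusted p = 0.00416), without Eos- Treg replicate 1 alone (-0.75, edgeR adjusted p = 0.0135) and with DESeq2 (-0.59, adjusted p = 0.0189). With limma-voom 0 members were called lower in this comparison, so Nr4a1 did not pass there. In Eos- Tregs against Tconv the Nr4a1 ratio within numbers was 1.06, 1.49, 1.22 and 1.41. That log2 fold change was 0.38 (SE 0.203, edgeR adjusted p = 0.253), and it was called with the block (0.35, SE 0.0843, edgeR adjusted p = 0.0138) and without the libraries numbered 1 (0.45, edgeR adjusted p = 0.0146). In Eos+ Tregs against Tconv the log2 fold change was -0.21 (SE 0.203, edgeR adjusted p = 0.492), and with the block -0.24 (edgeR adjusted p = 0.0506). Without the libraries numbered 2 the block gave -0.32 (edgeR adjusted p = 0.0412).

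Nr4a3, the remaining receptor of the family, had the widest spread of the members in both Treg populations, with a coefficient of variation of 74.4% in Eos+ Tregs and 35.4% in Eos- Tregs, against 21.2% in Tconv. It lies on chromosome 4 (48045153 to 48086447, plus strand, ENSMUSG00000028341.9). Eos+ Tregs had 8.78, 12.5, 17.6 and 42.4 CPM in replicates 1 to 4. Eos- Tregs had 19.2, 37.5, 30.8 and 47.7 CPM, and Tconv had 14.4, 23.8, 23.3 and 22.6 CPM. The highest Eos+ Treg library was 4.83 times the lowest, and this library, replicate 4, exceeded every Tconv library and 3 of 4 Eos- Treg libraries. Nr4a3 was lower in Eos+ than in Eos- Tregs in 4 of 4 numbers, with ratios of 0.457, 0.335, 0.572 and 0.887. The log2 fold change was -0.73 (SE 0.419, edgeR adjusted p = 0.276) with population means and -0.87 (SE 0.254, edgeR adjusted p = 0.0331) with the block. Without Eos+ Treg replicate 4 it was -1.38 and called (edgeR adjusted p = 0.0132). With the block, the call was lost without the libraries numbered 1 (-0.80, edgeR adjusted p = 0.103), 2 (-0.66, edgeR adjusted p = 0.169) or 3 (-0.90, edgeR adjusted p = 0.119), and without the libraries numbered 4 the value was -1.16 (edgeR adjusted p = 0.00331). Nr4a3 was higher in Eos- Tregs than in Tconv in 4 of 4 numbers, at log2 fold change 0.69 (SE 0.419, edgeR adjusted p = 0.321). In Eos+ Tregs against Tconv it was -0.05 (SE 0.418, edgeR adjusted p = 0.949), with a ratio above 1 in number 4 alone, and without the libraries numbered 4 the block gave -0.66 (edgeR adjusted p = 0.021).

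Egr1, a zinc finger factor of positive selection in mouse thymocytes, did not pass the test in any comparison. It lies on chromosome 18 (34859823 to 34864984, plus strand, ENSMUSG00000038418.7). Eos+ Tregs had 147, 166, 216 and 217 CPM in replicates 1 to 4. Eos- Tregs had 242, 222, 210 and 210 CPM, and Tconv had 306, 268, 228 and 188 CPM. Eos+ Tregs were lowest and Tconv highest in numbers 1 and 2, whereas in number 4 Eos+ Tregs were highest. The mean was 187 ± 35.3 CPM in Eos+ Tregs, 221 ± 15.2 CPM in Eos- Tregs and 248 ± 50.8 CPM in Tconv (SD, n = 4 each). In Eos+ Tregs against Tconv the log2 fold change was -0.41 (SE 0.153, edgeR adjusted p = 0.0618), and within numbers the ratio was 0.481, 0.621, 0.945 and 1.15. This value crossed the threshold without Eos+ Treg replicate 3 (-0.49, edgeR adjusted p = 0.0481), Eos+ Treg replicate 4 (-0.49, edgeR adjusted p = 0.0436) or Tconv replicate 4 (-0.52, edgeR adjusted p = 0.0187). It also passed with DESeq2 (-0.41, adjusted p = 0.0352), but without the libraries numbered 1 it was -0.20 (edgeR adjusted p = 0.344). With limma-voom 0 members were called lower in Eos+ Tregs against Tconv, so Egr1 did not pass there. In Eos+ against Eos- Tregs Egr1 was at -0.24 (SE 0.153, edgeR adjusted p = 0.326), and in Eos- Tregs against Tconv at -0.16 (SE 0.153, edgeR adjusted p = 0.551).

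Egr2, a factor of anergy and of NKT cell development in mice, stood at similar means in the 3 populations, with a spread that was wider than their differences. It lies on chromosome 10 (67535475 to 67542188, plus strand, ENSMUSG00000037868.15). Eos+ Tregs had 70.4, 77.1, 62 and 54.9 CPM in replicates 1 to 4. Eos- Tregs had 78.6, 60.7, 42.9 and 35.7 CPM, and Tconv had 88.9, 61.2, 41.7 and 42 CPM. Replicate 1 was the highest library of Eos- Tregs and of Tconv, the opposite of its place for the Nr4a genes, and all 3 populations overlapped. The log2 fold change was 0.28 (SE 0.271, edgeR adjusted p = 0.549) in Eos+ against Eos- Tregs and 0.18 (SE 0.27, edgeR adjusted p = 0.679) in Eos+ Tregs against Tconv. In numbers 2 to 4 Eos+ Tregs were above Eos- Tregs by ratios of 1.27, 1.45 and 1.54, and in number 1 below by 0.895. With the block and without the libraries numbered 1, Egr2 was called higher in Eos+ than in Eos- Tregs (0.49, edgeR adjusted p = 0.00981) and than in Tconv (0.42, edgeR adjusted p = 0.0107), while with all libraries the block gave 0.35 (edgeR adjusted p = 0.0933) and 0.25 (edgeR adjusted p = 0.187). In Eos- Tregs against Tconv it was -0.10 (SE 0.271, edgeR adjusted p = 0.859).

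Egr3, which acts with Egr2 in the same processes, was the least expressed member. It lies on chromosome 14 (70077203 to 70082614, plus strand, ENSMUSG00000033730.4). Eos+ Tregs had 6.8, 8.21, 7.55 and 8.62 CPM in replicates 1 to 4. Eos- Tregs had 6.11, 3.9, 5.74 and 8.7 CPM, and Tconv had 8.99, 6.03, 7.15 and 4.65 CPM. The Eos+ Treg libraries lay close together and inside the joint range of the others. The log2 fold change was 0.35 (SE 0.264, edgeR adjusted p = 0.423) in Eos+ against Eos- Tregs, 0.22 (SE 0.263, edgeR adjusted p = 0.59) in Eos+ Tregs against Tconv and -0.13 (SE 0.264, edgeR adjusted p = 0.81) in Eos- Tregs against Tconv. Egr4, the remaining gene of the family, had 0 to 31 expected counts per library.

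Over all 12 libraries, Nr4a1 varied with Nr4a2 and Nr4a3 around the population means, and Egr2 varied against Nr4a1 and Nr4a3. After the mean of each population was subtracted from log2 CPM, Pearson's r over the 12 libraries was 0.77 between Nr4a1 and Nr4a2 and 0.79 between Nr4a1 and Nr4a3. It was 0.44 between Nr4a2 and Nr4a3, -0.73 between Nr4a1 and Egr2 and -0.63 between Nr4a3 and Egr2. Egr1 had r of 0.44 with Egr2 and 0.43 with Egr3, and -0.04 with Nr4a1. The libraries are shared by all pairs of genes and come in same-numbered trios, so these coefficients are descriptions. They were not computed without the libraries numbered 1, so how far they rest on those libraries is not given. The libraries numbered 1 had the lowest Nr4a1, Nr4a2 and Nr4a3 of each population, and they are the same libraries in which Foxp3 was low. In them the summed level of 7 markers of double-positive thymocytes was 333 CPM in Eos+ Tregs, 343 CPM in Eos- Tregs and 271 CPM in Tconv. That sum was 165 CPM in Eos- Treg replicate 2, 297 CPM in Tconv replicate 2 and 31.1 to 81.8 CPM in the 7 remaining libraries. The part of these markers in the low Nr4a values was not tested.

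**Figure D3:**
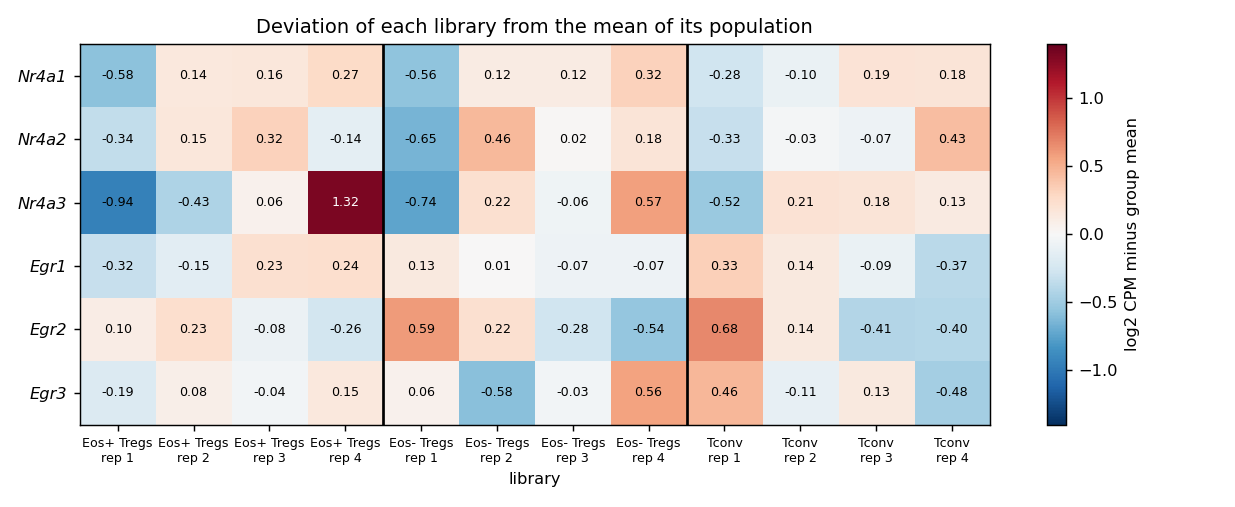
Deviation of log2 CPM from the mean of its population, for the 6 members (rows) in the 12 libraries (columns); red is above the mean and blue below. Replicate 1 is blue in the 3 Nr4a rows of each population, from -0.28 to -0.94, and red in the Egr2 row, while Nr4a3 in Eos+ Treg replicate 4 stands 1.32 above its mean.

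The balance within the Nr4a family differed between the populations, a comparison chosen after the values were seen and given without a test. Nr4a2 CPM as a share of Nr4a1 CPM was 9.27%, 7.94%, 8.8% and 5.96% in Eos+ Tregs replicates 1 to 4. The share was 2.44%, 3.29%, 2.43% and 2.36% in Eos- Tregs, and 1.52%, 1.64%, 1.3% and 1.86% in Tconv. The 3 populations did not overlap in this share, and replicate 1, with low Nr4a1 and low Nr4a2, did not stand apart in Eos- Tregs or Tconv. Nr4a3 as a share of Nr4a1 was 2.68% to 8.3% in Eos+ Tregs, 4.43% to 5.99% in Eos- Tregs and 3.51% to 5.11% in Tconv, with overlap throughout. Egr2 as a share of Egr1 was 25.3% to 47.8% in Eos+ Tregs, 17% to 32.5% in Eos- Tregs and 18.3% to 29% in Tconv. Within each number that share was highest in Eos+ Tregs.

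**Figure D4:**
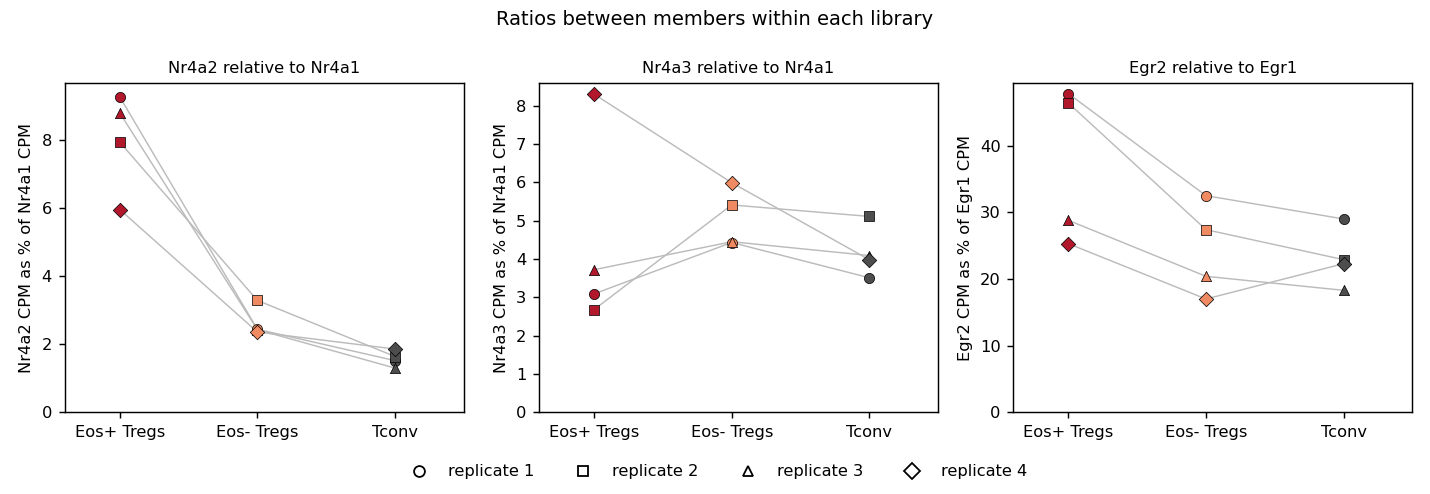
CPM of one member as a percentage of another in each of the 12 libraries, for Nr4a2 over Nr4a1, Nr4a3 over Nr4a1 and Egr2 over Egr1; grey lines join libraries of the same replicate number. Nr4a2 over Nr4a1 is 5.96% to 9.27% in Eos+ Tregs, 2.36% to 3.29% in Eos- Tregs and 1.3% to 1.86% in Tconv, whereas the other ratios overlap.

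Among 8621 genes with a mean of 10 CPM or more, those with the pattern most like each member were ranked by Pearson's r of log2 CPM over the 12 libraries. Nr4a2 was most like Relb, a subunit of NF-kB (r = 0.98), Xdh, which encodes xanthine dehydrogenase (0.98), and Ninj1, a cell surface protein (0.98). With population means subtracted these were 0.86, 0.78 and 0.84. Xdh averaged 57.6 CPM in Eos+ Tregs, 28.5 CPM in Eos- Tregs and 14 CPM in Tconv, with the same order as Nr4a2. Nr4a1 was most like Phf20l1 (0.92), Chd3, a chromatin remodeller (0.92), and Jak2, a cytokine receptor kinase (0.92). Nr4a3 was most like Phf21a (0.93), Prrc2c (0.89) and Son, a splicing cofactor (0.89). For Egr1 these were Ttll4 (0.89), Tollip (0.88) and Tent4b (0.88), for Egr2 Faap24 (0.88), Ahsa2 (0.87) and Tedc1 (0.87), and for Egr3 Fbxo42 (0.82), Gde1 (0.79) and Timm44 (0.77). With population means subtracted, r was 0.877 to 0.928 for the genes named with Nr4a1 and 0.849 to 0.901 for Nr4a3. It was 0.811 to 0.85 for Egr1, 0.858 to 0.904 for Egr2 and 0.772 to 0.866 for Egr3. For these members the likeness thus held between libraries of the same population. Genes picked as the highest of 8621 over 12 libraries reach high r by selection, and no test was made.

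Other genes known to be induced through the T cell receptor included many that were higher in Tregs. Of 30 such genes, 7 rose and 3 fell in Eos+ against Eos- Tregs (median log2 fold change 0.14), and 16 rose and 1 fell in Eos+ Tregs against Tconv (median 0.91). In Eos- Tregs against Tconv 14 rose and 0 fell with edgeR (median 0.54), where 1 was lower at an unadjusted p under 0.05, 1 fell with DESeq2 and 0 with limma-voom. Over all tested genes the medians were 0.00, -0.01 and -0.01, with 9.82% of genes called higher and 6.45% called lower in Eos+ against Eos- Tregs. In Eos+ Tregs against Tconv 17.3% were called higher and 13% lower, and in Eos- Tregs against Tconv 8.76% higher and 5.89% lower. The same shares stand beside the lists that follow. With the block 10 of the 30 genes rose and 5 fell between the Treg populations. Against Tconv 18 rose and 1 fell in Eos+ Tregs, and 19 rose and 1 fell in Eos- Tregs. The block called 22.8%, 36.3% and 21.5% of all genes in these comparisons, in either direction. Cd83, a surface protein of activated cells, was 564 ± 65.1 CPM in Eos+ Tregs, 141 ± 14.3 CPM in Eos- Tregs and 10.8 ± 5.95 CPM in Tconv (SD, n = 4 each), with no overlap. Bhlhe40, a transcription factor of activated T cells, was 386 ± 110 CPM in Eos+ Tregs, 68.6 ± 34.9 CPM in Eos- Tregs and 19.5 ± 13.4 CPM in Tconv. Spry1, a feedback inhibitor of receptor signalling, was 107 ± 16.3 CPM in Eos+ Tregs, 46.7 ± 8.95 CPM in Eos- Tregs and 8.98 ± 2.94 CPM in Tconv. Each of these 3 genes was called in all 3 comparisons and ran in the order of Nr4a2. Other genes of the list had their highest mean in Eos- Tregs and their lowest in Eos+ Tregs, as Nr4a1 did, and 3 of them are given here after their values were seen. Cd5, a negative regulator of receptor signalling, was 630 ± 27.8 CPM in Eos+ Tregs, 834 ± 71.7 CPM in Eos- Tregs and 689 ± 30.3 CPM in Tconv. It fell in Eos+ relative to Eos- Tregs (edgeR adjusted p = 0.00308) and rose in Eos- Tregs relative to Tconv (edgeR adjusted p = 0.0284). Arid5a, an RNA-binding protein, was 245 ± 44.5 CPM in Eos+ Tregs, 326 ± 35.6 CPM in Eos- Tregs and 271 ± 16.7 CPM in Tconv. It fell between the Treg populations (edgeR adjusted p = 0.0363), a call lost without the libraries numbered 1. Dusp2, a phosphatase of ERK, was 225 ± 45.8 CPM in Eos+ Tregs, 347 ± 75.3 CPM in Eos- Tregs and 268 ± 61.2 CPM in Tconv. Between the Treg populations it was not called with population means (edgeR adjusted p = 0.0502), but it fell with the block (log2 fold change -0.63, edgeR adjusted p = 0.00238). Ier5l rose in Eos+ Tregs against either other population, at 13.7 ± 3.69 CPM, against 1.31 ± 1.05 CPM in Eos- Tregs and 2.23 ± 0.655 CPM in Tconv.

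AP-1 factors, which are induced beside the Egr genes, were higher in Eos+ Tregs where they passed the test. Of 8 tested, 2 rose in Eos+ against Eos- Tregs, 5 in Eos+ Tregs against Tconv and 2 in Eos- Tregs against Tconv, and 0 fell with edgeR, DESeq2 or limma-voom or at an unadjusted p under 0.05. Over all tested genes 9.82%, 17.3% and 8.76% were called higher in these comparisons. Jun was 1350 ± 255 CPM in Eos+ Tregs, 803 ± 138 CPM in Eos- Tregs and 506 ± 86.7 CPM in Tconv, and it was called in all 3 comparisons. Batf, an AP-1 factor of effector T cells, was 117 ± 12.5 CPM in Eos+ Tregs, 43.1 ± 4.74 CPM in Eos- Tregs and 37.3 ± 4.54 CPM in Tconv, with a 2.71-fold rise between the Treg populations (edgeR adjusted p = 1.05e-05). Fosb was 3.61-fold higher in Eos+ Tregs than in Tconv (edgeR adjusted p = 0.00888), and Fos 1.75-fold higher (edgeR adjusted p = 0.0218). With the replicate block 4 AP-1 genes rose between the Treg populations, the added ones being Fosb and Junb, and 4 rose in Eos- Tregs against Tconv. Of all genes the block called 22.8% and 21.5% in these comparisons, in either direction.

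Genes of the known routes to the members were called in both directions. Of 14 genes of the MEF2, histone deacetylase, calcineurin and NFAT route, 2 rose and 2 fell in Eos+ against Eos- Tregs, 2 rose and 4 fell in Eos+ Tregs against Tconv, and 1 rose and 1 fell in Eos- Tregs against Tconv. Over all tested genes 16.3%, 30.3% and 14.6% were called in these comparisons, and the route is near that share in the last. Hdac5 was 39.9 ± 4.22 CPM in Eos+ Tregs, 51.6 ± 4.41 CPM in Eos- Tregs and 80.5 ± 4.41 CPM in Tconv, and it was called lower in each comparison. Hdac4, of the same class, ran the other way, with 112 ± 13.5 CPM in Eos+ Tregs, 88.8 ± 5.35 CPM in Eos- Tregs and 68 ± 7.53 CPM in Tconv. Without the libraries numbered 1, neither Hdac5 nor Hdac4 was called between the Treg populations. Hdac4 was then also not called in Eos- Tregs against Tconv. Mef2a was 48.4 ± 2.42 CPM in Eos+ Tregs, 73.9 ± 1.55 CPM in Eos- Tregs and 83.1 ± 9.3 CPM in Tconv, 1.53-fold lower between the Treg populations (edgeR adjusted p = 0.000505). Ppp3r1, the regulatory subunit of calcineurin, was 1.55-fold lower in Eos+ Tregs than in Tconv (edgeR adjusted p = 0.0048). With the block 9 of these 14 genes were called between the Treg populations, 4 of them higher and 5 lower, where 22.8% of all genes were called.

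Of 14 genes of the Ras, ERK and serum response factor route, 1 rose and 3 fell in Eos+ Tregs against either other population, and 1 fell in Eos- Tregs against Tconv, where the block called 4. Of all genes 16.3% were called in Eos+ against Eos- Tregs and 30.3% in Eos+ Tregs against Tconv. In Eos- Tregs against Tconv 14.6% were called, and 21.5% with the block. Rasgrp1, which activates Ras after receptor signalling, was 446 ± 63.9 CPM in Eos+ Tregs, 746 ± 117 CPM in Eos- Tregs and 777 ± 94.1 CPM in Tconv. It was 1.67-fold lower in Eos+ than in Eos- Tregs (edgeR adjusted p = 0.00225). Nras was 65 ± 3.4 CPM in Eos+ Tregs, 93.1 ± 4.36 CPM in Eos- Tregs and 123 ± 4.51 CPM in Tconv, without overlap. Elk4, a partner of serum response factor, was 54 ± 7.16 CPM in Eos+ Tregs, 96.6 ± 15.2 CPM in Eos- Tregs and 108 ± 7.28 CPM in Tconv. Elk3, of the same family, was higher at 118 ± 15.6 CPM in Eos+ Tregs, against 90.6 ± 9.64 CPM in Eos- Tregs and 74.3 ± 7.58 CPM in Tconv.

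**Figure D5:**
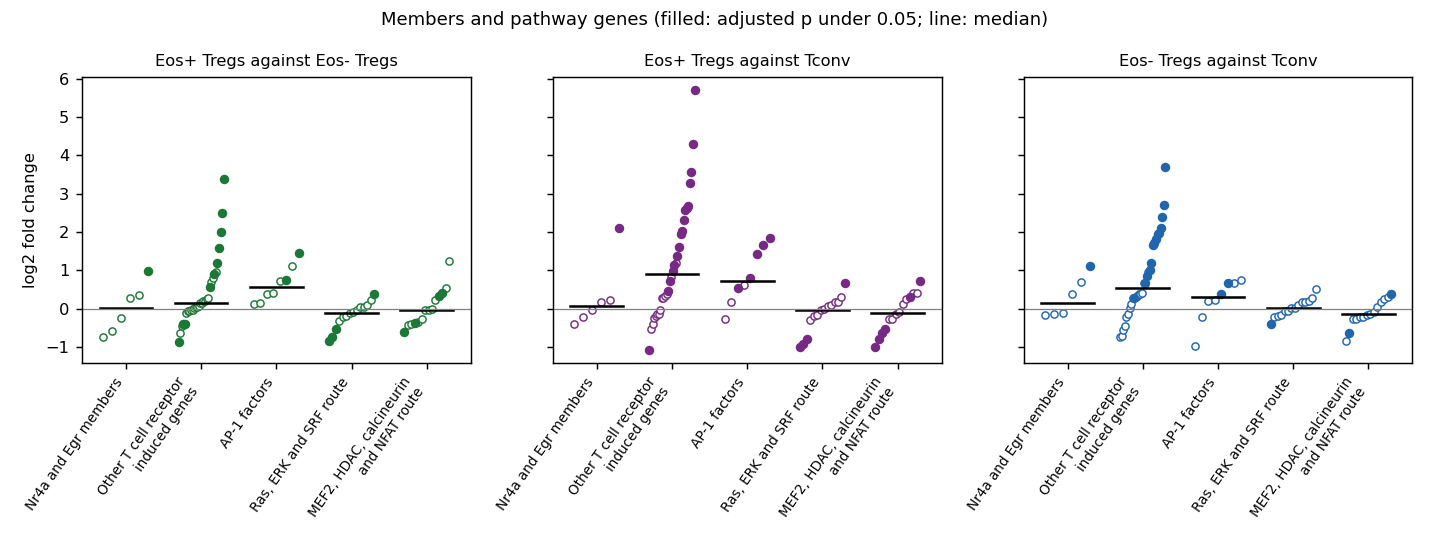
Log2 fold changes of the 6 members and of 4 lists of related genes in the 3 comparisons, with 1 point per tested gene ordered by value within a list; filled points have an edgeR adjusted p under 0.05 and black lines are medians. The other T cell receptor induced genes reach 5.7 (Cd83) in Eos+ Tregs against Tconv with a median of 0.91, while of the members Nr4a2 alone is filled, at 2.09.

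Binding partners of the members also differed. Nab2, a corepressor that binds Egr factors and is itself induced by them, was 97.7 ± 19.4 CPM in Eos+ Tregs, 127 ± 19.3 CPM in Eos- Tregs and 224 ± 48 CPM in Tconv. It was 2.29-fold lower in Eos+ Tregs than in Tconv (edgeR adjusted p = 0.000219) and 1.76-fold lower in Eos- Tregs than in Tconv (edgeR adjusted p = 0.00748), and between the Treg populations it was called with the block alone (edgeR adjusted p = 0.177, and 0.0419 with the block). Nab1 was 133 ± 14.1 CPM in Eos+ Tregs, 119 ± 5.63 CPM in Eos- Tregs and 142 ± 3.62 CPM in Tconv. It was called lower in Eos- Tregs against Tconv (edgeR adjusted p = 0.0416), a call lost without the libraries numbered 1. Rxra, a retinoid X receptor that pairs with Nr4a1 and Nr4a2, was 23 ± 7.86 CPM in Eos+ Tregs, 7.76 ± 3.28 CPM in Eos- Tregs and 9.33 ± 1.24 CPM in Tconv. It was 2.96-fold higher in Eos+ than in Eos- Tregs (edgeR adjusted p = 0.00353). Of the other partners in the list, Rxrb was tested and not called, and Rxrg had 0 counts in every library.

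Genes that have been described downstream of the members moved in both directions. Of 12 genes tied to Egr2 and Egr3 in anergy, 1 rose and 3 fell in Eos+ against Eos- Tregs, and 4 rose and 3 fell in either Treg population against Tconv. The share of all genes called was 16.3% between the Treg populations, 30.3% in Eos+ Tregs against Tconv and 14.6% in Eos- Tregs against Tconv. Nrn1, a surface protein of anergic T cells, was 24.4 ± 5.14 CPM in Eos+ Tregs, 12 ± 5.2 CPM in Eos- Tregs and 3.24 ± 1.83 CPM in Tconv, and Tnfrsf9, the costimulatory receptor 4-1BB, was 4.07-fold higher in Eos+ Tregs than in Tconv (edgeR adjusted p = 2.96e-05). Nrgn, a calmodulin-binding protein, ran the other way with 0.797 ± 0.233 CPM in Eos+ Tregs, 3.18 ± 3.12 CPM in Eos- Tregs and 14.6 ± 3.88 CPM in Tconv. Lag3, an inhibitory receptor, was 5.71 ± 1.37 CPM in Eos+ Tregs, 1.38 ± 0.464 CPM in Eos- Tregs and 0.502 ± 0.225 CPM in Tconv. Without the libraries numbered 1, the anergy list had 1 gene higher and 1 lower between the Treg populations. Of 5 genes tied to Egr factors in thymocytes, 2 fell in Eos+ against Eos- Tregs, 1 rose and 2 fell in Eos+ Tregs against Tconv, and 1 rose and 1 fell in Eos- Tregs against Tconv. Id3, an inhibitor of E proteins and a known Egr target, was 128 ± 15.6 CPM in Eos+ Tregs, 197 ± 25.9 CPM in Eos- Tregs and 163 ± 34.5 CPM in Tconv, and fell between the Treg populations (log2 fold change -0.62, edgeR adjusted p = 0.0155). Zbtb16, the NKT cell factor PLZF, was 0.0364 ± 0.0729 CPM in Eos+ Tregs, 0.226 ± 0.21 CPM in Eos- Tregs and 5.62 ± 2.66 CPM in Tconv, and Il2rb, a receptor chain for IL-2 and IL-15, was 1481 ± 243 CPM in Eos+ Tregs, 1354 ± 266 CPM in Eos- Tregs and 266 ± 73.8 CPM in Tconv. Bcl2, a survival factor, fell by 1.04 on the log2 scale between the Treg populations (edgeR adjusted p = 9.19e-05).

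Of 10 genes described with Nr4a receptors in Tregs and chronically stimulated T cells, 6 rose and 2 fell in Eos+ against Eos- Tregs. Against Tconv 6 rose and 2 fell in Eos+ Tregs, and 4 rose and 2 fell in Eos- Tregs. The genes called with population means differed. Entpd1, Havcr2, Lag3, Pdcd1 and Tigit rose in Eos+ Tregs against either population, Tox2 against Eos- Tregs alone and Foxp3 against Tconv alone. Bcl2l11 fell in Eos+ Tregs against either, Tox against Eos- Tregs alone and Runx1 against Tconv alone. In Eos- Tregs against Tconv, Runx1 and Tox2 fell. Foxp3 is itself a gate of the sort. The share of all genes called was 16.3% in Eos+ against Eos- Tregs, 30.3% in Eos+ Tregs against Tconv and 14.6% in Eos- Tregs against Tconv. Tigit, an inhibitory receptor, was 47.2 ± 7.14 CPM in Eos+ Tregs, 2.64 ± 1.17 CPM in Eos- Tregs and 0.542 ± 0.434 CPM in Tconv. Tox2, a factor of the TOX family, was 29.1 ± 5.78 CPM in Eos+ Tregs, 1.91 ± 2.13 CPM in Eos- Tregs and 10.4 ± 4.56 CPM in Tconv. Havcr2, which encodes the receptor TIM-3, was 11.8 ± 3.98 CPM in Eos+ Tregs, 0.994 ± 0.612 CPM in Eos- Tregs and 0.725 ± 0.97 CPM in Tconv.

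Immediate early genes can also be induced while cells are isolated, and 16 such genes were followed beside the members. Fos, Fosb, Jun, Junb and Atf3 are also in the AP-1 list, and Ier2 and Ier3 among the other T cell receptor induced genes. These counts are therefore not separate from those above. In Eos+ against Eos- Tregs 1 of the 16 rose, which was Jun. In Eos+ Tregs against Tconv 7 rose, with Fos, Fosb and Jun among them, and in Eos- Tregs against Tconv 2 rose, Jun and Nfkbia. By edgeR with population means, DESeq2 or limma-voom 0 fell. In Eos+ Tregs against Tconv 1 was lower at an unadjusted p under 0.05, and Gadd45a fell with the block. With the block 7 were called between the Treg populations and 9 in Eos- Tregs against Tconv, where 4 were called without the libraries numbered 1. Of all genes 9.82% were called higher in Eos+ against Eos- Tregs, 17.3% in Eos+ Tregs against Tconv and 8.76% in Eos- Tregs against Tconv. With the block 22.8% were called between the Treg populations and 21.5% in Eos- Tregs against Tconv, in either direction. The summed level of the 16 genes in replicates 1 to 4 was 6770, 9500, 11900 and 10300 CPM in Eos+ Tregs. It was 5670, 6700, 9630 and 9720 CPM in Eos- Tregs, and 4610, 4620, 7850 and 6880 CPM in Tconv. The sum was thus lowest in replicate 1 of each population, as Nr4a1, Nr4a2 and Nr4a3 were, and within each number it was highest in Eos+ Tregs, where Nr4a1 was lower than in Eos- Tregs. Nfkbia, an inhibitor of NF-kB, was 875 ± 159 CPM in Eos+ Tregs, 706 ± 149 CPM in Eos- Tregs and 367 ± 68.3 CPM in Tconv, and Socs3, an inhibitor of cytokine signalling, was 3.13-fold higher in Eos+ Tregs than in Tconv (edgeR adjusted p = 0.00351). Among 9 heat shock genes 0 were called in any comparison by edgeR with population means, by DESeq2 or by limma-voom, and 1 was lower in Eos+ Tregs against Tconv at an unadjusted p under 0.05, while the block called 1 between the Treg populations, 3 in Eos+ Tregs against Tconv and 2 in Eos- Tregs against Tconv. The part of cell handling in the levels of the members was not tested.

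Markers of other cell types moved with the comparison of the Treg populations too. The summed level of 9 B cell markers was 42.2 to 158 CPM in Eos+ Tregs, 3.65 to 28.4 CPM in Eos- Tregs and 10.6 to 56.9 CPM in Tconv. Of the 8 tested, 2 (Cd79a and Cd79b) rose in Eos+ against Eos- Tregs, where 9.82% of all genes did, and Pax5 averaged 0.173 CPM in Eos+ Tregs. The block, DESeq2, limma-voom and the fit without the libraries numbered 1 each called 4 of the 8, all higher, and 7 were higher at an unadjusted p under 0.05. The B cell markers called in Eos- Tregs against Tconv were 0 by edgeR with population means, DESeq2 or limma-voom, while 1 was lower at an unadjusted p under 0.05, 2 fell with the block and 3 without the libraries numbered 1. The sum of 11 dendritic cell and macrophage markers was 18.6 to 140 CPM in Eos+ Tregs, 2 to 83.8 CPM in Eos- Tregs and 14.3 to 55.5 CPM in Tconv, with Xcr1 called higher in Eos+ against Eos- Tregs. The sum of 7 thymic epithelial markers was 23.5 to 39.4 CPM in Eos+ Tregs, 10.9 to 15.2 CPM in Eos- Tregs and 6.28 to 8.96 CPM in Tconv. Of them Epcam averaged 30.4 CPM in Eos+ Tregs, 12.7 CPM in Eos- Tregs and 6.93 CPM in Tconv. Among its defining genes Foxn1 and Krt5 were at 0 in Eos- Tregs and Tconv, at mean levels of 0.00729 and 0.152 CPM in Eos+ Tregs, and Epcam and Aire were called higher in Eos+ than in Eos- Tregs. The sum of 4 gamma-delta and NKT cell markers, Zbtb16 among them, was 8.35 to 32.9 CPM in Eos+ Tregs, 19 to 55.2 CPM in Eos- Tregs and 66.6 to 142 CPM in Tconv. All 4 fell in Eos+ Tregs against Tconv, and Klrb1c and Zbtb16 fell in Eos- Tregs against Tconv. With the block, or without the libraries numbered 1, Sox13 was not called in Eos+ Tregs against Tconv and 3 fell. Klrb1c, which encodes NK1.1, was 1.88 ± 1.95 CPM in Eos+ Tregs, 4.76 ± 5.35 CPM in Eos- Tregs and 51.8 ± 33.3 CPM in Tconv. The sum of 6 CD8, NK and cytotoxic markers was 131 to 217 CPM in Eos+ Tregs, 41.8 to 153 CPM in Eos- Tregs and 101 to 263 CPM in Tconv. Of these Nkg7 rose in Eos+ against Eos- Tregs, and Klrd1 fell in Eos+ Tregs against Tconv. The part of these cells in the values of the members was not tested.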

How the data were processed

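RNA of 12 libraries, 4 per population, was sequenced, and the authors deposited 1 table of expected counts per gene that is not normalized. The tools named in the submitters' processing notes are RSEM 1.3.1, STAR 2.7.0f and cutadapt 1.18, with the build mm10. Their parameters and annotation release are not given in the sources used here. Reads that fit more than 1 gene are divided between them by RSEM: 9.54% to 10.7% of values per library were not whole, but all values of the 6 members were. The library kit does not mark strand, and no member shares exon bases with another gene in GENCODE M21, which matched all 55450 IDs and gave positions and lengths.

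Values were rounded to whole numbers, and edgeR 4.0.16 under R 4.3.3 gave the tests (quasi-likelihood F test, TMM, filterByExpr, 1 mean per population over 12 libraries, two-sided, threshold 0.05 on the Benjamini-Hochberg adjusted p). The SE is the absolute log2 fold change over the square root of F. Log2 CPM used a prior count of 2. In simulated Eos+ against Eos- Treg data (14909 genes), 69% of 2-fold and 97% of 4-fold changes among 200 changed genes were recovered.

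Libraries with the same number share an identifier in their names whose meaning the labels do not give. Deviations from population means correlated at 0.138 to 0.318 in all 12 same-number pairs and at -0.226 to 0.0695 in 36 others, so the number was taken as a pairing. Counts of replicates differed by more than sampling noise (chi-square per degree of freedom 25.4 to 80.9 in 18 pairs). Whether replicates were separate animals is not stated, so the p-values cover only how far these libraries spread, which may be technical.

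Alternatives were RLE factors, other filters, DESeq2 1.42.0, limma-voom (limma 3.58.1), the block, each library left out, the libraries numbered 1 left out and, added after the data were seen, the block without each number. Members and gene lists were chosen with earlier results of these data known. From each list, up to 4 called genes with the largest change and a mean of 5 CPM or more in a population are named, and 3 genes most like each member (mean of 10 CPM or more). Markers of other cell types, Cd5, Arid5a, Dusp2, Junb, Gadd45a, Rxrb and Rxrg were named after their values were seen. So were Entpd1, Pdcd1, Bcl2l11, Tox, Runx1, Atf3, Ier2 and Ier3. Coordinates are of mm10, and promoters are RefSeq's.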

Additional observations from a re-analysis of the deposited data

Results flagged for a closer look

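Nr4a3 in Tconv replicate 1 stood at 14.4 CPM, while the other 3 Tconv libraries were at 22.6 to 23.8 CPM, so that the gap to its nearest neighbour took up 0.87 of the range of the group. It was the only one of 18 sets of 4 libraries (6 members in 3 populations) with a library that far from the rest, and chance alone sets apart about 1 in 20 such sets. Without Tconv replicate 1 the log2 fold change of Nr4a3 was -0.19 in Eos+ Tregs against Tconv (edgeR adjusted p = 0.807) and 0.54 in Eos- Tregs against Tconv (edgeR adjusted p = 0.534).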

How the results depend on the processing

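Nr4a2 kept its direction and its call in all 3 comparisons under each of the 20 alternatives run per comparison, with log2 fold changes of 0.79 to 1.14 in Eos+ against Eos- Tregs, 1.95 to 2.30 in Eos+ Tregs against Tconv and at least 0.92 in Eos- Tregs against Tconv. Only Nr4a2 was called with population means, and other members were added by some settings, for which the cause was not tested. In Eos+ against Eos- Tregs 2 members were called with DESeq2 and without the libraries numbered 1, 3 with the replicate block, 3 with the block without number 1 or 4, 2 with the block without number 2 or 3, and 1 to 2 when single replicates were left out. In Eos+ Tregs against Tconv 2 were called with the filter of 1 CPM in 4 libraries and with DESeq2, 2 with the block without number 1 or 2, 3 with the block without number 4, and 1 to 2 when single replicates were left out. In Eos- Tregs against Tconv 2 were called with the block, without number 1 and with both together. The number of genes called over the whole table stayed within 1.5 times its value throughout, at 1910 to 3498, 3882 to 5571 and 1574 to 3300 in the order of comparisons above. The paired values that change a call stand beside the results, and the block changed no other call of a member.

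Values near 0 that were not called changed sign. Nr4a3 in Eos+ Tregs against Tconv (-0.05) was 0.054 without number 1 and ran from -0.69 to 0.20 when single replicates were left out. Egr3 in Eos- Tregs against Tconv (-0.13) was 0.045 without number 1, 0.00095 with the block without number 1 and -0.36 to 0.040 with single replicates left out, and Egr2 there (-0.10) ran from -0.33 to 0.17. Among the lists, the block gave 1 called gene of the Egr4 and Nab list instead of 0, 9 of the MEF2 and calcineurin route instead of 4, 4 AP-1 genes instead of 2, 1 heat shock gene instead of 0 and 7 handling genes instead of 1 between the Treg populations. There it also gave 4 B cell and 4 Treg markers instead of 2 each, 2 dendritic cell markers instead of 1 and 1 gamma-delta and NKT marker instead of 0. For Eos+ Tregs against Tconv it gave 3 heat shock genes instead of 0, 2 dendritic cell markers instead of 1 and 1 double-positive thymocyte marker instead of 0. It also gave 3 gamma-delta and NKT markers there instead of 4. In Eos- Tregs against Tconv it gave 4 of the Ras route instead of 1, 4 AP-1 genes instead of 2, 2 heat shock genes instead of 0, 9 handling genes instead of 2, and 2 B cell, 2 cytotoxic and 1 dendritic cell markers instead of 0. Without number 1 the anergy list had 2 called genes instead of 4 between the Treg populations, and in Eos- Tregs against Tconv the Egr4 and Nab list had 1 instead of 2, the MEF2 route 1 instead of 2 and the handling list 4 instead of 2. Leaving out number 1 moved the marker counts as the block did, with some exceptions. Treg and double-positive markers did not move, and Eos+ Tregs against Tconv had 2 epithelial markers instead of 1. Eos- Tregs against Tconv had 3 B cell markers, and 2 CD4 T cell markers instead of 3. Depth limits Egr3 most, at 137 to 303 expected counts per library.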
